A study of Mus musculus with 4 samples.

Results

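LM8 is a mouse osteosarcoma cell line, a bone tumour line that is syngeneic with C3H/HeN mice. The list of sequence variants found in its messenger RNA held 5445 records, and all 2802 substitutions of 1 base among them are described here, out of 5971 substitutions listed in the whole study. The study listed the variants of 2 untreated mouse cancer lines to gauge their mutational burden, and only LM8 is described. LM8 was grown in MEM with 10% serum, antibiotics and 24 mM HEPES, had no engineered allele named in its labels, and gave 2 libraries from poly(A) RNA, replicate 1 and replicate 2, read as pairs of 75 bases. Nothing in the labels says that the replicates were grown apart, so a difference between them may be technical. The p-values between them set the reads of 1 library against those of the other. They measure the sampling of reads only and estimate no spread between libraries or cultures. The file header names only replicate 1 as the tumour sample. For every substitution the alternative fraction was the number of reads with the alternative base over reads with the reference or alternative base, summed over both libraries. The members were then split into 3 bands at fractions of 0.2 and 0.6, so the bands are a description and carry no test.

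A variant in 1 of the alleles of a diploid gene is read in RNA in proportion to that allele's expression, and a variant in only some cells is read less often. Extra copies of a gene can lower or raise the share, depending on which allele they carry. A substitution in RNA can be inherited from the strain, acquired by the line, written into the RNA by an editing enzyme such as ADAR, which turns adenosine into inosine and is read as A to G, or arise while the library is made. Inbred strains differ from the reference genome, which is of another strain, and no normal C3H/HeN tissue was sequenced beside the line. Osteosarcoma is known for rearranged genomes with many copy number changes.

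The band above 0.6 held 207 substitutions (7.39% of 2802, exact 95% interval 6.45 to 8.42), the band from 0.2 to 0.6 held 170 (6.07%, 5.21 to 7.02) and the band under 0.2 held 2425 (86.5%, 85.2 to 87.8). The intervals cover counting error only. Replicate 1 gave 261215 reads at these sites and replicate 2 gave 247157, at medians of 54 and 50 per site. A list of variants holds no expression level, so the identity of the cells cannot be checked from it. Of 16 osteoblast markers, Runx2, Col1a1, Col1a2 and Panx3 had a listed record of some kind and only Runx2 had a substitution, while of 20 markers of other cell types only the neural Tubb3 had a record. Neither count has a share over all genes beside it. Mesenchymal markers such as Prrx1, which had listed substitutions, are in neither count.

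The sequences around the sites that the account turns on are printed first. Each is a stretch of 21 bases of a GENCODE M21 transcript (build GRCm38), 5′ to 3′ along the RNA, written with T for U. The substituted base is in capitals as the reference has it. The first set holds the 3 missense substitutions above 0.6 and the 8 deepest missense ones from 0.2 to 0.6, which carry the protein changes described first.
Plxna1 P1023S: tggcagcgccCctattgttat
Tnxb T2050S: ccagagcccaCtgaggagcca
Cog3 I635V: cattaaggaaAtttccctgga
Tnc R572C: tggccaaggcCgctgtgagga
Ybx1 A313T: gaattcgtccGctcccgaggc
Tle5 H174Q: ctcagacccaCctctccaagg
Sqstm1 H342L: gactggacacAtttgtcttca
Fgfr1 W101C: ctctgcgctgGttgaaaaatg
Spg20 I567S: gctaaatgcaTcgttaacaac
Insc A345S: cttcctgctgGcctctgcggc
Col6a3 K1303Q: gctgtttgagAagtttcgcaa

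The second set comes from the band under 0.2 and shows the bases next to sites whose alternative base lay, in the median, at most 2 bases from a read end. It holds the 2 deepest coding sites for each of G to A, T to C and A to G on the RNA strand.
Maged1 A763T: cgccaacttcGccgccaactt
Phgdh G256R: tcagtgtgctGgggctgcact
Cad L1179P: ccgaaaactcTggagcggatc
Idh3g N387: gcatcattaaTggacgggctg
Psma7 K242R: aatgaaaagaAgaagcaaaag
Aimp1 K303R: tttgaggtgaAggggaaggga

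The third set, also under 0.2, shows G to A changes that lay inside the reads and were followed by a run of A.
Eif3a E99K: attagcagagGaaaaaacaga
Psma7 E46K: tcttggtgtgGaaaaaaaatc
Nucks1 E200K: gaaatcaaagGaaaaaactcc
Smarca5 G943E: actaacaaagGaaaaaactat

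**Figure D1:**
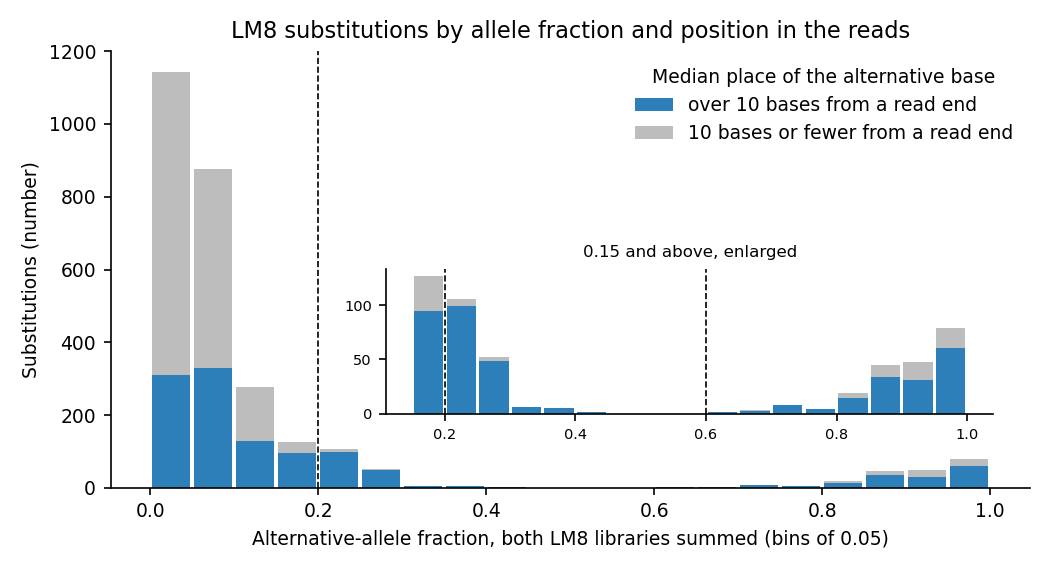
Number of LM8 substitutions (vertical axis) by alternative fraction in bins of 0.05 (horizontal axis), with the part whose alternative base lay over 10 bases from a read end in blue and the rest in grey, and dashed lines at 0.2 and, in the enlarged inset, at 0.2 and 0.6. No bin between 0.45 and 0.6 held a substitution, and grey bars make up most of the bins under 0.15.

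Counts fell with rising fraction up to 0.413, with no break at 0.2, and only the edge at 0.6 lay in a gap. Under 0.1 there were 2020 substitutions, 1144 of them under 0.05. From 0.1 to 0.15 there were 278, from 0.15 to 0.2 there were 127, from 0.2 to 0.3 there were 158, and from 0.3 to 0.6 only 12. None lay between 0.413 and 0.649, and 79 lay at 0.95 or more, 45 of them without a reference read. The caller's filter for germline alleles was applied before deposit, and its part in the gap was not tested. The median of the caller's germline quality, which is high where an inherited allele is unlikely, was 9 above 0.6, 50 from 0.2 to 0.6 and 93 under 0.2. An allele frequency other than the default was given for 30 of 207 substitutions above 0.6 (14.5%), 7 of 170 from 0.2 to 0.6 (4.12%) and 67 of 2425 under 0.2 (2.76%). Named sites with such a frequency include Tnxb T2050S, the Hjurp 3′ UTR site above 0.6, Ubtf T695M and H2-Q4 R251K.

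Members next to the edges were as follows. Just above 0.6 stood Plxna1 P1023S at 64.9% alternative reads and a 3′ UTR substitution in Hjurp, the chaperone of centromeric histone H3, at 65.3%. The next below were 2 sites beside the ribosomal RNA gene Rn18s-rs5, at 41.3% and 38.4%. At the lower edge, an intergenic site on chromosome 1 and a 3′ UTR site in Ino80c stood at 20% each. Under it stood E670Q in Scaf11 at 19.9%.

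**Figure D2:**
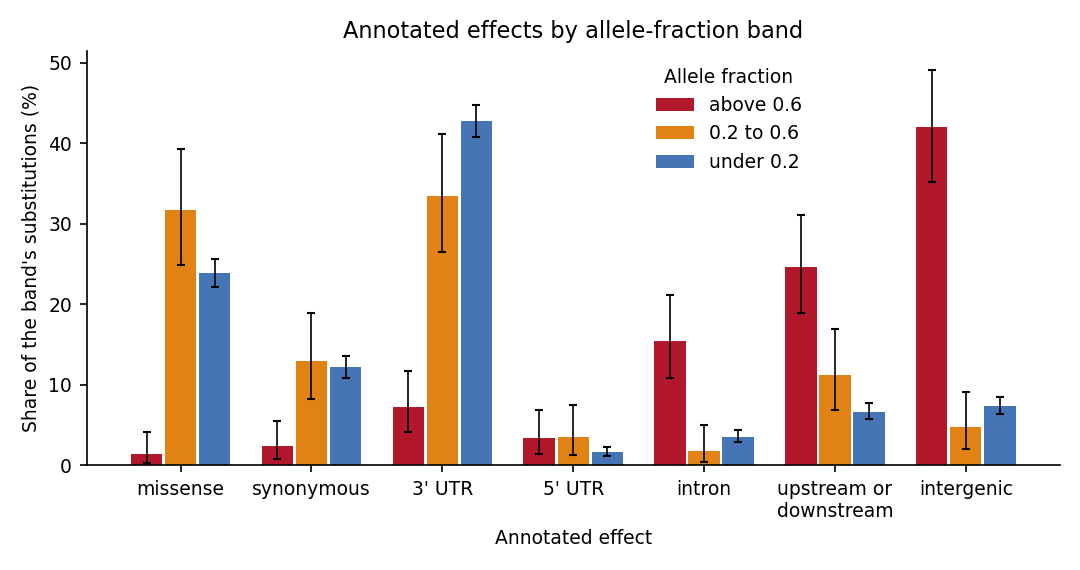
Share of the substitutions of each band (vertical axis, %) with each annotated effect (horizontal axis), for fractions above 0.6, from 0.2 to 0.6 and under 0.2, with exact 95% intervals as bars. Above 0.6, intergenic sites led with 42.0% and missense sites made up 1.45%, against 31.8% missense from 0.2 to 0.6.

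Substitutions above 0.6 lay mostly outside coding sequence. Of 207, 87 were intergenic (42.0%, 35.2 to 49.1), 51 lay upstream or downstream of a gene (24.6%, 18.9 to 31.1) and 32 were intronic (15.5%, 10.8 to 21.1). The 3′ UTR held 15 and the 5′ UTR 7. Coding substitutions numbered 8, of which 3 were missense (37.5%, 8.52 to 75.5, and 75% among sites with at least 40 reads) and 5 synonymous. Pseudogenes were the annotated gene of 22. The median depth was 29 reads over both libraries, and 136 of the 207 had fewer than 40 reads.

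Only 5 substitutions above 0.6 altered a protein or a splice site (2.42%, 0.789 to 5.55). P1023S in Plxna1, a receptor for semaphorins, had the alternative base in 118 of 180 reads of replicate 1 and 91 of 142 of replicate 2, at chr6:89310097 of GRCm39 in exon 15. T2050S in Tnxb, which encodes the matrix protein tenascin X, had 49 of 61 and 34 of 39 (chr17:34930465, exon 17). The Tnxb allele was listed with an allele frequency other than the default. I635V in Cog3, a subunit of a Golgi tethering complex, had 23 of 26 and 16 of 20 (chr14:75957159, exon 17). The Cog3 change is A to G on the RNA strand, and this codon is known as a target of ADAR editing in mice. The base before it along the RNA, in the codon for E634, was listed with the same change at 6.67% of 45 reads.

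The other 2 were at splice donors. Fbxo3, a substrate adaptor of ubiquitin ligases, had 63 of 83 and 54 of 78 alternative reads (chr2:103885373). Nsd2, a histone H3 lysine methyltransferase, had 25 of 29 and 20 of 24 (chr5:34039513), and its alternative base lay a median of 1 base from the read end, against 18 to 22 bases at the other 4. In all 5 the libraries lay on the same side of 0.6, and the smallest unadjusted p between them by Fisher's exact test was 0.379, in Fbxo3.

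Most of the deepest sites above 0.6 altered no protein, Plxna1 and Fbxo3 being the exceptions among the 12 deepest. An intergenic site at X:169100663 had 300 and 237 alternative reads in replicates 1 and 2 against 114 reference reads in each, and 3 more intergenic sites within the same stretch of the X chromosome, down to X:169098318, stood at 70.2% to 72.5%. The 3′ UTRs of Hjurp, Mad2l1 and Cdc27 stood at 65.3%, 67.1% and 73.1%. Mad2l1 encodes a protein of the spindle checkpoint and Cdc27 a subunit of the anaphase-promoting complex. Of the 12 deepest members, 11 had fractions under 0.75, while the median over the band was 0.919.

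The band from 0.2 to 0.6 had the largest share of missense substitutions. Missense substitutions made up 54 of its 170 members (31.8%, 24.8 to 39.3) and 54 of its 76 coding members (71.1%, 59.5 to 80.9). The 3′ UTR held 57 (33.5%), synonymous positions 22 (12.9%), introns 3 and intergenic sequence 8. No substitution in it gained a stop codon or hit a splice site. A count of 0 in 170 allows a share of up to 1.76% for each (3 counts of the total), or 2.15% by the exact interval. Over all substitutions the shares were lower than that, at 0.714% stop gained and 0.464% splice site. Members were deep, with a median of 183 reads, and 160 of 170 had the alternative base over 10 bases from the read end (94.1%). The median fraction was 0.237.

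Matrix and signalling genes were among its deepest missense sites. R572C in Tnc, which encodes the matrix protein tenascin C, had 321 of 1404 alternative reads in replicate 1 and 316 of 1233 in replicate 2 (chr4:63935221, exon 2). K1303Q in Col6a3, a chain of collagen VI, had 119 of 449 and 92 of 366 (chr1:90729033, exon 9). W101C in Fgfr1, a fibroblast growth factor receptor, had 129 of 528 and 114 of 478 (chr8:26048208, exon 4). The 3 sites stood at 24.2%, 25.9% and 24.2%, and the replicates differed by less than 3 percentage points at each.

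Nucleic acid binding, cargo and coat proteins followed. A313T in Ybx1, a Y-box protein that binds RNA, had 310 of 1154 and 295 of 1085 alternative reads (chr4:119136194, exon 7). H174Q in Tle5, a Groucho family corepressor, had 224 of 1043 and 228 of 1002 (chr10:81401455). H342L in Sqstm1, the autophagy receptor p62, had 171 of 645 and 169 of 643 (chr11:50093372). These lay at 27.0%, 22.1% and 26.4%. N75D in Arcn1, a subunit of the COPI vesicle coat, stood at 27.1% of 693 reads, I567S in Spg20 at 22.8% of 917 and A345S in Insc, an adaptor in spindle orientation, at 24.7% of 899.

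G218A in Ppp4c, the catalytic subunit of protein phosphatase 4, was the highest of the 15 deepest missense sites. It had 127 of 355 and 115 of 312 alternative reads, which is 36.3% (32.6 to 40.1), and its interval did not overlap those of the other 14. Aurkb A324P, in the kinase of the chromosomal passenger complex, had 47 of 278 and 63 of 265 alternative reads. Uba3 F264C, in the catalytic subunit of the NEDD8-activating enzyme, had 38 of 245 and 65 of 254. Both were under 20% in replicate 1 and over it in replicate 2. Wscd2 V506M and the glutathione peroxidase Gpx7 T122S went the other way, with 28.9% and 17.6%, and 24.8% and 18.8%, in replicates 1 and 2.

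**Figure D3:**
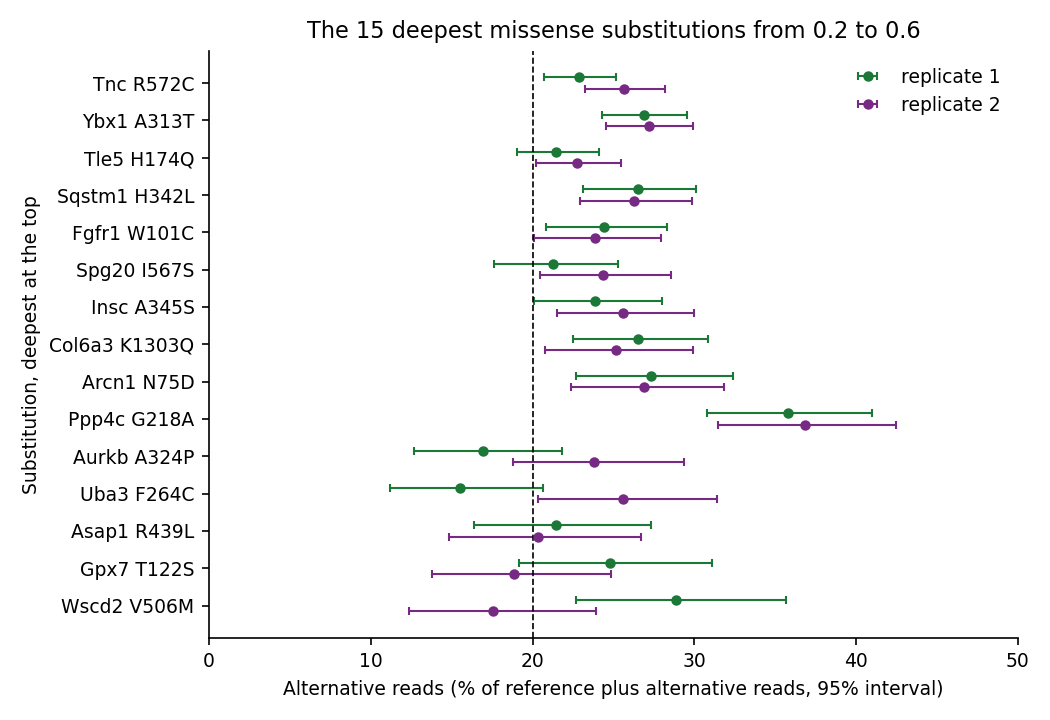
Percent of alternative reads (horizontal axis, with exact 95% intervals) in replicate 1 and replicate 2 of the 15 deepest missense substitutions from 0.2 to 0.6, with the deepest at the top and a dashed line at 20%. Ppp4c stands highest in both replicates at 35.8% and 36.9%, and Aurkb, Uba3, Gpx7 and Wscd2 have 1 replicate on each side of the line.

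R439L in Asap1, a GTPase-activating protein for Arf, belonged to the only pair of adjacent substitutions with both members in this band, at 425 reads. The base next to it, synonymous in the same codon, had the same counts in both libraries, 50 of 233 and 39 of 192, so both sites stood at 20.9%.

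All 54 missense genes were grouped by role after their values were seen. Genes of transcription and chromatin numbered 10, at 20% to 27.3% alternative reads, and included the histone methyltransferase Setd2 (R457Q, 20.9% of 129 reads), the transcription elongation factor Supt4a, the P-TEFb inhibitor Hexim1 (A129P, 27.3% of 216), the Mediator subunit Med26 and the AP-1 family member Fosl2 (R127C, 20% of 60). RNA binding, decay, modification and translation held 7, at 20.6% to 35.2%, with Lsm14a of processing bodies the highest (S124I, 35.2% of 341). Membrane traffic and adhesion also held 7, at 20.9% to 32.4%, with the annexin Anxa11 the highest (P166A, 32.4% of 250).

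Smaller groups made up most of the others. Mitosis, chromosome structure, polarity and microtubules held 6, at 20.1% to 26.1%, among them the centromere protein Cenpq (E189G, 20.4% of 324) and the SMC5/6 complex subunit Smc5 (R289C, 20.1% of 303). Receptors and signalling held 6 at 21.2% to 36.3%, with Fgfr1, Ppp4c, the collagen receptor Ddr1 (G342A, 28.6% of 119), the lysophosphatidic acid receptor Lpar1 (R78H, 29.0% of 286) and Notch1 (L2200F, 21.2% of 52, interval 11.1 to 34.7). The caller's germline quality was 3 at Ddr1 and Notch1 and 8 at Lsm14a, against a median of 50 in the band. Ubiquitin, proteasome and autophagy held 5 at 20.6% to 29.9%, with the deubiquitinase Usp47 the highest (F939V). Metabolic enzymes numbered 3, matrix genes 2 and nuclear pore genes 1, and 7 were not placed. Over all 54 the median was 23.8%, and the medians of the groups with 5 or more placed genes ranged from 20.5% to 26.4%.

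Outside coding sequence, the deepest member was a 3′ UTR G to A change in Ywhae, which encodes a 14-3-3 protein, with 267 of 781 and 228 of 730 alternative reads. In the 5′ UTR, a C to T change in the bromodomain gene Brd2 that was annotated as gaining a start codon had 137 of 426 and 121 of 387. The synonymous G559 site of Htatsf1 on the X chromosome had 69 of 197 and 59 of 160. These 3 were among the 12 members from 0.3 to 0.6, of which 4 lay beside Rn18s-rs5. The ribosomal RNA gene has near-identical copies in the genome, so the values at its sites are uncertain.

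Some base changes differed in share between the bands. Of 143 genic members from 0.2 to 0.6 with a known strand, C to T on the RNA strand made up 30 (20.98%, 14.6 to 28.6) and G to A 26 (18.2%, 12.2 to 25.5), while T to C made up 5 (3.50%). Under 0.2 these shares were 8.73%, 28.4% and 26.1% of 2084. Members under 0.2 that lay over 10 bases inside the reads had 19.2%, 24.2% and 8.53% by the read pairs. By the read pairs, all members from 0.2 to 0.6 had 18.2%, 19.4% and 6.47%. Of the 14 coding C to T members from 0.2 to 0.6, 9 were followed by G (64.3%, 35.1 to 87.2), against 11.5% of all C in coding sequence. The C of Tnc R572C is such a site. A to G, the change that ADAR editing gives, made up 19 of 143 (13.3%, 8.19 to 19.97), against 10 of 68 above 0.6 (14.7%, 7.28 to 25.4) and 353 of 2084 under 0.2 (16.9%, 15.4 to 18.6), so the intervals of the 3 bands overlapped. Above 0.6 the annotated strand is uncertain, since read pairs gave the opposite strand at 23 of 66 genic sites (34.8%, 23.5 to 47.6), against 1.40% from 0.2 to 0.6 and 3.77% under 0.2. By the read pairs the A to G share above 0.6 was 19.4% of genic sites. Over all sites with a strand from read pairs, genic or not, it was 47 of 205 (22.9%, 17.4 to 29.3). The like shares were 14.1% of 170 from 0.2 to 0.6 and 17.3% of 2408 under 0.2. Among genic sites above 0.6 with at least 40 reads it was 22.7% by the annotation.

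The band under 0.2 was mainly made of sites with few alternative reads, near read ends. Its median fraction was 0.052 and its median number of alternative reads 6. The 3′ UTR held 1038 of its 2425 members (42.8%, 40.8 to 44.8), missense positions 579 (23.9%) and synonymous positions 295 (12.2%). Missense substitutions were 64.7% of its 895 coding members (61.5 to 67.8), and the interval overlapped that of the band from 0.2 to 0.6. All 20 stop-gained substitutions and 11 of the 13 splice site ones were in this band, which holds 86.5% of all substitutions, and no difference from the other bands was tested.

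Well-covered missense sites of this band were of unlike kinds. D118G in Asns, the asparagine synthetase, had 64 of 1049 and 86 of 1059 alternative reads, 7.12% in all, at a median of 18 bases from the read end. S1017N in Myh9, the heavy chain of non-muscle myosin, had 121 of 606 and 82 of 529, 17.9% in all, and stood 25 bases inside. P47L in Tmem119, a membrane protein known from osteoblasts, stood at 2.01% of 1045 reads. Rpn1 Y331N, Psma7 K242R and Maged1 A763T stood at 1.61%, 1.76% and 2.30% and lay 1 base from the read end. The lowest, Y103F in Nt5dc2, rested on 2 alternative reads of 963, both in replicate 2.

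The deepest stop-gained substitution was R311* in Ddx3x, an RNA helicase gene on the X chromosome, with 10 of 475 and 11 of 496 alternative reads. Uggt1 R333*, Ppp1r15b L552*, Ppp2r5e W447* and Selenon W419* followed with 2.03%, 5.42%, 2.75% and 2.69%. Uggt1 encodes a folding sensor of the endoplasmic reticulum, and Ppp1r15b and Ppp2r5e regulatory subunits of protein phosphatases. Over the 20 stop-gained sites the median was 4.96%, and the highest was Utp20 W1186* at 19.6% of 46 reads, with its alternative base 1 base from the read end. Of the 20, 9 lay at most 2 bases from a read end and 9 over 10 bases from it.

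The place of the alternative base in the reads separated this band. It lay a median of at most 2 bases from the read end at 1127 of 2425 members (46.5%, 44.5 to 48.5), 3 to 5 bases at 297, 6 to 10 bases at 136 and over 10 bases at 865 (35.7%, 33.8 to 37.6). In the bins of fraction the share over 10 bases inside was 27.2% under 0.05, 37.6% from 0.05 to 0.1, 46.8% from 0.1 to 0.15 and 74.8% from 0.15 to 0.2. Members at read ends were mostly in the 3′ UTR (55.9%, 52.9 to 58.8), and those inside reads less so (28.2%, 25.2 to 31.3). Introns held 0.532% and 8.09% of them, and intergenic sequence 1.69% and 15.1%. Missense shares were close, at 23.6% and 23.4%.

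**Figure D4:**
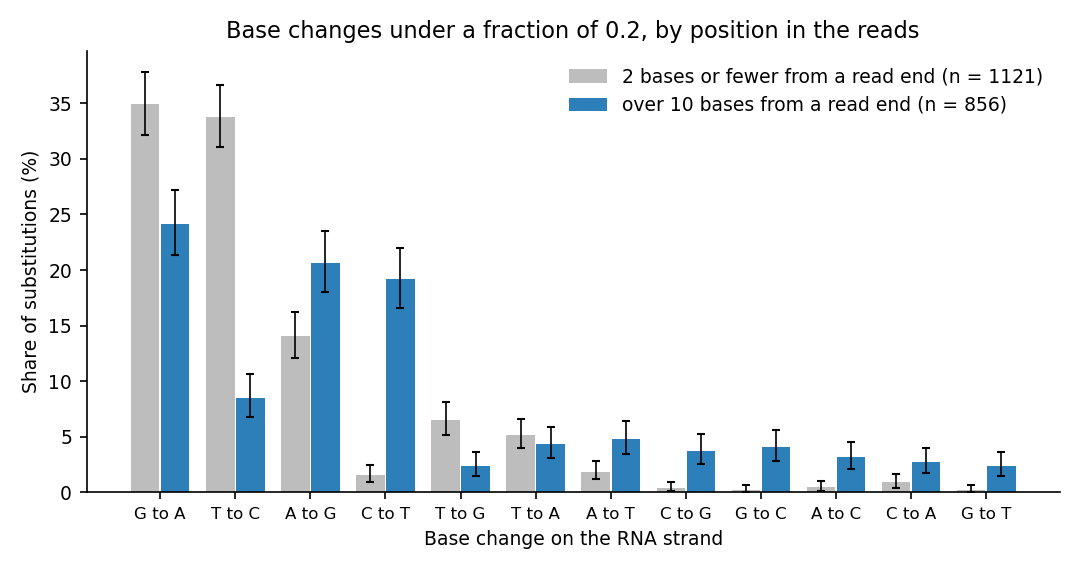
Share of substitutions under a fraction of 0.2 (vertical axis, %) with each base change on the RNA strand (horizontal axis), for those whose alternative base lay at most 2 bases from a read end (1121 with a strand) and over 10 bases from it (856), with exact 95% intervals as bars. G to A and T to C lead at read ends with 35.0% and 33.8%, and C to T makes up 1.52% there and 19.2% inside reads.

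The base changes of the 2 places were unlike. Here the RNA strand was taken from the orientation of the read pairs, which is possible since the kit was directional. At read ends G to A made up 35.0% of 1121 (32.2 to 37.8), T to C 33.8% (31.0 to 36.7) and C to T 1.52% (0.886 to 2.42). Over 10 bases inside, G to A made up 24.2% of 856 (21.3 to 27.2), T to C 8.53% (6.74 to 10.6), C to T 19.2% (16.6 to 21.96) and A to G 20.7% (18.01 to 23.5).

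The reads that carried the alternative base also differed. At read ends 94.9% of 7889 alternative reads aligned against the RNA strand, as 1 mate of each pair does, compared with 76.9% of the reference reads at the same sites. Inside reads the shares were 49.2% and 47.6%. At 943 of 1121 read-end members every alternative read was of that kind (84.1%), for example all 21 at Psma7 K242R, all 16 at Maged1 A763T and all 12 at Idh3g N387. Whether these sites are changes of the cells' RNA or of the library was not tested.

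Neighbouring bases could be read for 970 of 979 coding members. At read ends, the base after a T to C site was G in 77 of 104 (74.0%, 64.5 to 82.1), against 36.7% of all T in the coding sequence of the same transcripts, and GG followed in 63.5% against 11.1%. After A to G sites it was G in 52 of 78 (66.7%), against 33.1%. G to A sites were followed by C in 96 of 162 (59.3%, against 25.7%) and by G in 56 (34.6%, against 26.4%). The printed windows of Cad, Idh3g and Aimp1 show a G after the capital, and that of Maged1 a C. Inside reads, T to C and A to G sites were followed by G in 35.7% of 28 and 34.2% of 38, near the shares of all such bases.

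G to A sites inside reads had another neighbourhood. AAA followed in 26 of 63 (41.3%, 29.0 to 54.4), against 2.54% of all G in coding sequence and 1 of 162 at read ends. Eif3a E99K, in the largest subunit of the initiation factor eIF3, is one, with 6 of 540 and 11 of 484 alternative reads. Psma7 E46K, in a proteasome subunit, had 5 of 510 and 4 of 494, Nucks1 E200K 11 of 372 and 5 of 368, and Smarca5 G943E, in the ISWI chromatin remodeller, 7 of 299 and 9 of 255. All 4 stood between 0.896% and 2.89%.

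Exon junctions lay near a larger share of read-end sites than of sites inside reads. The share of all coding bases within 10 bases of a junction is not given here, so these shares have no background beside them. In the transcripts, 106 of 413 read-end coding members were within 10 bases of a junction (25.7%, 21.5 to 30.2), against 21 of 314 inside reads (6.69%, 4.19 to 10.0) and 1 of 75 from 0.2 to 0.6 (1.33%, 0.034 to 7.21). Of the 11 splice site members under 0.2, 4 lay at most 2 bases from a read end, and only that in Taco1 lay over 10 bases inside.

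No difference between the replicates was detectable at single sites at this depth. Fisher's exact test (two-sided) on the reads of replicate 1 against replicate 2 called 0 of 2802 sites (0%) after Benjamini-Hochberg adjustment, with an adjusted p of 1 at each, and 81 (2.89%) at an unadjusted p under 0.05. A chi-square test called 0 after adjustment and 136 (4.85%) without. The direction was even, with 40 (1.43%) of the 81 higher in replicate 1 and 41 (1.46%) in replicate 2. By band the unadjusted count was 2 of 207 above 0.6 (0.966%), 10 of 170 from 0.2 to 0.6 (5.88%, 2.86 to 10.6) and 69 of 2425 under 0.2 (2.85%). The test compares 2 libraries and not conditions. Depth limits it: at only 403 of 2802 sites could a single call have passed the adjustment even with the alternative reads gathered in 1 library as far as its depth allows, 24 above 0.6, 163 from 0.2 to 0.6 and 216 under 0.2.

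**Figure D5:**
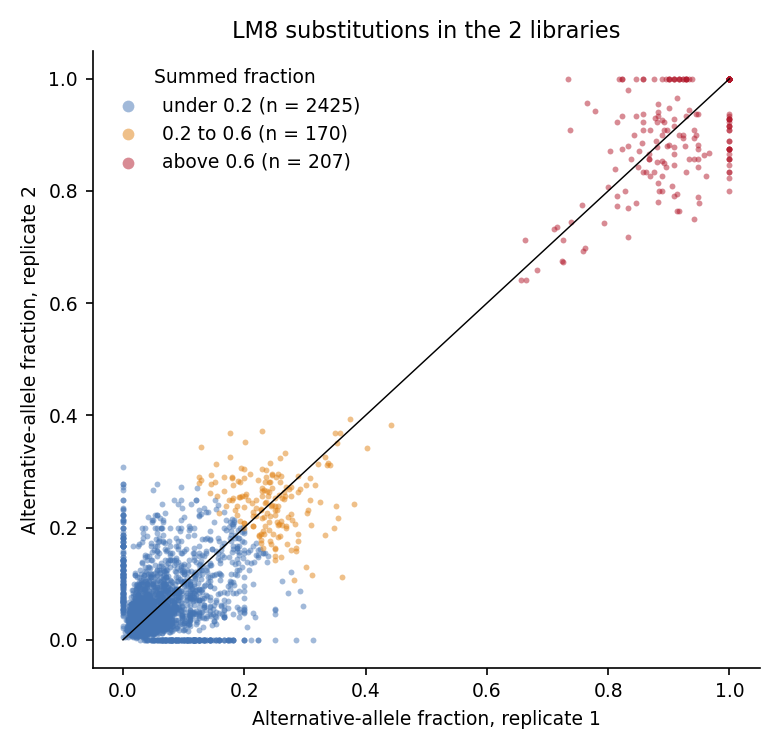
Alternative fraction of each substitution in replicate 1 (horizontal axis) and replicate 2 (vertical axis), coloured by the band of the summed fraction, with the line of equal fractions. All 207 members above 0.6 lie above 0.6 in both replicates, and points on the axes are the 354 members under 0.2 with alternative reads in 1 replicate only.

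The site with the smallest p was P1210L in Tns3, a tensin of focal adhesions, with 23 of 130 alternative reads in replicate 1 and 35 of 95 in replicate 2 (Fisher's exact p = 0.00188, adjusted p = 1). A 3′ UTR site in the kinase gene Hipk1 followed with 19 of 124 and 41 of 131 (exact p = 0.00307). V252A in Il2rg, the common gamma chain of interleukin receptors, had 6 of 21 and 0 of 29, and Rhoa, a small GTPase, had 81 of 883 and 46 of 831 at a 3′ UTR site. The remaining 6 of the 10 smallest were in Nmt2, Uba3, Ier3, Prrc2a, Mafg and Abcf3, with exact p from 0.00431 to 0.0079. Apart from Tns3, Hipk1, Rhoa and Uba3, the sites of these 10 lay 1 to 3 bases from the read end.

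Whether a member stayed in its band in both replicates depends on its distance from a band edge. The counts that follow therefore do not rank the bands by agreement. The median absolute difference in fraction between the replicates was 0.051 both above 0.6 and from 0.2 to 0.6. It was over 0.1 at 43 of 207 and 36 of 170 members. All 207 members above 0.6 were above it in both replicates. From 0.2 to 0.6, 108 of 170 were in the band in both (63.5%, 55.8 to 70.8), 30 in replicate 1 only and 32 in replicate 2 only. Under 0.2, 2289 of 2425 were under it in both (94.4%). Alternative reads came from 1 replicate only at 354 sites, 191 in replicate 1 and 163 in replicate 2, and all 354 were under 0.2. Those sites had a median of 3 alternative reads in the other library, and the library without one had a median depth of 21 reads. Such sites made up 25.4% of the 865 members inside reads and 7.01% of the 1127 at read ends, where the summed depths had medians of 72 and 138 reads.

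Chromosomes differed in their counts of the upper bands, which were not tested. Those named here were picked for high or low shares. Over all substitutions the shares were 6.07% from 0.2 to 0.6 and 7.39% above 0.6. Chromosome 11 held 27 of the 170 members from 0.2 to 0.6, which is 11.3% of its 240 substitutions (7.55 to 15.9), among them Sqstm1, Aurkb, Ubtf, Tns3, Hexim1 and Ywhae. Chromosome 17 held 17, 10.5% of 162 (6.23 to 16.3), and 7 of the 17 lay beside Rn18s-rs5. Chromosome 12 held no member from 0.2 to 0.6 among its 83 substitutions (a count of 0 allows up to 3.61%, or 4.35% by the exact interval). Above 0.6, the X chromosome held 18 of its 115 substitutions (15.7%, 9.55 to 23.6). These include the neighbouring intergenic sites from X:169098318 to X:169100663. The Y chromosome had 7 substitutions, 2 of them above 0.6, and unplaced scaffolds 10.

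Most genes held a single member. Of 2044 genes with a substitution, 1673 held 1, 304 held 2, 60 held 3 or 4 and 7 held 5 or more. Def8 had 12, all intronic within 6221 bases of chromosome 8, with 2127 to 3373 reads. On the genome strand 9 of them were C to T and 3 G to A. At all 12 the read pairs gave the strand opposite to that of Def8, so these reads are assigned to Def8 by position only. Most stood at 1.85% to 5.38%, while 3 stood at 16.4%, 16.7% and 18.6%, and the replicates of these 3 differed by less than 2 percentage points.

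Sfi1, which encodes a centrin-binding protein, had 10 coding members, 7 of them missense, at 6.25% to 18.6% of only 30 to 52 reads. An unnamed gene on the scaffold JH584304.1 (ENSMUSG00000095041) had 6 in its 3′ UTR, at 4.76% to 29.6%. Reads of genes with near-identical copies can be placed at the wrong copy, so the values for these genes are uncertain. The nucleolar protein gene Ncl had 5 in its 3′ UTR at 2.08% to 8.04%, of which 4 were A to G on the RNA strand. The H3K4 methyltransferase gene Kmt2d also had 5, at 3.39% to 13.4%, with K316E the highest of its protein-altering ones at 10.3% of 39 reads. The Gm37665 entry had 2 upstream sites above 0.6 and 3 under 0.2.

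Adjacent A to G changes were also listed in other genes. In Azin1, the antizyme inhibitor, S367G, known as a target of ADAR editing, stood at 3.39% of 620 reads and the base before it along the RNA at 1.29% of 619. A pair in the 3′ UTR of Gabpb2 stood at 16.1% and 26.1% of 124 and 119 reads.

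The gene lists counted the known biology. The share of all genes that had a substitution is not given here, so the counts of list genes have no background beside them. Across all 2802 substitutions the median fraction was 0.059, and 13.5% stood at 0.2 or more. Of 50 cancer drivers, 17 had 22 substitutions, with a median of 0.052 and 18.2% at 0.2 or more. Their protein-altering ones at 0.1 or more were Fgfr1 W101C, Notch1 L2200F (21.2% of 52 reads, interval 11.1 to 34.7) and Cul3 M126T (13.0% of 46 reads, 1 base from the read end). Of 38 chromatin regulators, 13 had 20 substitutions, with a median of 0.049 and 15% at 0.2 or more. Nsd2, Setd2 and Kmt2d held protein-altering ones at 0.1 or more. Setd2 R457Q had 14 of 60 and 13 of 69 alternative reads.

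DNA repair genes had 12 substitutions in 9 of 34 genes, with a median of 0.068 and 8.33% at 0.2 or more. Of the 12, 8 altered a protein or splice site, all under 0.2, against 23.9% of all 2802 substitutions. The 2802 include 274 intergenic and 232 upstream or downstream ones, so that share is not matched to lists of genes. Cancer drivers had 8 of 22, chromatin regulators 7 of 20, bone and matrix genes 4 of 11, and antigen presentation and interferon genes 1 of 4. No difference was tested. The mismatch repair gene Msh3 had A204T at 19.8% of 106 reads, and the excision repair helicase gene Ercc2 had H164Y at 16.1% of 56. Mitosis and cell cycle genes had 18 in 15 of 34 genes, with a median of 0.036 and 5.56% at 0.2 or more, 10 of them protein-altering by the same count. Aurkb A324P was the only one of these 10 in the band from 0.2 to 0.6, while Cenpf A346T, Kif20b G1747D and a splice donor site of Plk1, at 10.0% to 10.5%, all lay 1 base from the read end.

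Bone and matrix genes had 11 substitutions in 7 of 35 genes, with a median of 0.043 and 9.09% at 0.2 or more, and Col6a3 K1303Q was the only one of them at 0.2 or more. Antigen presentation and interferon genes had 4 in 3 of 24 genes, with a median of 0.094 and 25% at 0.2 or more. H2-Q4 R251K, in a class I gene of the MHC, stood at 11.4% of 237 reads and has near-identical relatives, so its value is uncertain. The H2-Q4 allele was also listed with an allele frequency other than the default.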

How the data were processed

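The deposited list for LM8 is in variant call format 4.2, and its columns hold read counts per allele and library, per the file headers. The authors' caller was Mutect 2.2, run jointly on both libraries with no matched normal, followed by FilterMutectCalls of GATK 4.1.5.0, with at most 2 events per region and minimum medians of 30 for mapping quality, 20 for base quality and 1 base for distance from the read end, per the file headers. SnpEff 5.1d with database 105 of GRCm39 gave 1 effect per record, per the file headers. Reads were handled with bcl2fastq 2.17.1.14, cutadapt 1.9.1, STAR 2.7.9a and GATK 4.3.0, per the submitters' processing notes, with the treatment of spliced reads not given in the sources used here. The list shows no site that missed the filters, and no depth where nothing was called.

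All substitutions were kept with no filter on depth. Fractions, exact Clopper-Pearson intervals and Fisher's exact test per site with Benjamini-Hochberg adjustment over all 2802 sites (threshold 0.05) were computed in Python 3.11.15 with scipy 1.17.1, pandas 2.3.3 and numpy 2.4.6, and plotted with matplotlib 3.10.9. Read position is the caller's median distance of the alternative base from the read end. GENCODE M21 (GRCm38) gave gene strands and transcript sequences by identifier. Its exon and coding coordinates served only to find coding starts and exon junctions within transcripts, not to place sites on the genome. Read pairs gave the strand of the annotated gene at 95.5% of 2278 genic sites, fewer above 0.6. Sequences of proteins and of the GRCm39 genome were not used here.

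Named sites are protein-altering ones above 0.6, the deepest missense and stop-gained ones of the other bands, members of the gene lists at 0.1 or more, genes with 5 or more substitutions, those next to the band edges and the 10 smallest p between libraries. Other names were chosen after their values were seen. An item that these rules took is not reported here. The members, lists and rules were chosen with earlier results of these data known. Alternatives tried were single libraries, the caller's fraction, depth minimums, other edges, and leaving out genes with many substitutions.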

Additional observations from a re-analysis of the deposited data

How the results depend on the processing

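The 11 values of the bands and replicates were recomputed under 80 alternatives, and under 73 the counts moved by less than 1.5 times or the shares stayed within their intervals. With at least 40 reads the band above 0.6 held 71 substitutions in place of 207, its missense share of coding sites was 75% in place of 37.5% and its A to G share 22.7% in place of 14.7% (both within the wide intervals of few sites), and the sites with alternative reads in 1 library only numbered 207 in place of 354, or 175 with at least 20 reads in each library. Without adjustment 81 sites differed between the libraries in place of 0. Limiting the list to alternative bases over 10 bases from read ends was chosen after seeing the data: the band under 0.2 then held 865 in place of 2425, its A to G share was 19.3% in place of 16.9%, and 220 sites had alternative reads in 1 library only. Taking the strand from read pairs, also chosen after seeing the data, gave an A to G share above 0.6 of 19.4%. No paired analysis was possible because only 1 line is described, so no groups are compared. Depth limits the upper band most, with a median of 29 reads against 183 and 109.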
